A study of Mus musculus with 5 samples.

Results

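Interferon response genes are the receptors, signal transducers and induced genes of the interferon pathway, and 48 of them were followed here in hematopoietic stem cells (HSCs) from wild-type (WT) and Atxn1L null mice. The members were given by name. Each was read by the probe set that names that gene alone and has the highest mean over the 5 arrays. This gave a value for 47 of the 48, from 82 probe sets, among 18193 genes on the array with a probe set of their own. The 48th, Isg15, is the ubiquitin-like modifier of the response, and its 1 probe set also names another gene, so no value is given for it.

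RNA was measured on Affymetrix MOE430.2 arrays, of which 3 carried RNA from WT and 2 RNA from Atxn1L null HSCs. All mice were of the C57Bl/6 strain and 6 to 8 weeks old, the labels name no treatment, and the null mice carried a knock-out allele of Atxn1L, the gene of Ataxin1-like, a partner of the transcriptional repressor Capicua. The labels describe native cells taken from bone marrow and sorted as lacking lineage markers, positive for c-Kit, Sca-1 and CD150, and within the side population that excludes Hoechst dye. HSCs were pooled for each array, and their RNA was amplified in 2 rounds before labelling. The null mice carried the allele as whole animals and not only in their HSCs. In pooled cells, fewer cells that express a gene and less RNA of it per cell cannot be told apart.

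Interferons alert cells to infection. Type I interferons bind a receptor made of Ifnar1 and Ifnar2, and interferon gamma binds one made of Ifngr1 and Ifngr2. Kinases on these receptors activate Stat factors, which with Irf9 or alone bind response elements in the promoters of induced genes. In bone marrow both kinds of interferon are known to bring quiescent HSCs into cycle, and stem cells are known to keep some interferon-stimulated genes on without infection.

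The response elements are shown first, as the DNA letters through which these genes are known to be read. RefSeq promoters of build GRCm38.p6, each running from 250 bases before to 50 bases after a start, were at hand for 38 of the 48 members in 47 windows. The core of the interferon-stimulated response element (ISRE), GAAANNGAA on either strand, lay in a window of 19 of the 38 members (50%), against 9.76% of 27025 genes. The gamma-activated site (GAS), TTCNNNGAA on either strand, lay in a window of 14 members (36.8%), against 9.55% of all genes. A match is a run of letters and not a proven binding site. For 4 members that the results below turn on, the 250 bases before the start are printed 5′ to 3′ along the gene's strand, with every match in capitals. Irf1 (chr11:53769764-53770013, plus strand) holds a GAS that begins at position -90 from its start. Rsad2 (chr12:26456453-26456702, minus strand) holds an ISRE core at position -119. Gbp3 (chr3:142559794-142560043, plus strand) holds a pair of overlapping ISRE cores that begin at positions -44 and -38. Ifngr2 (chr16:91546809-91547058, plus strand) holds neither. A further window of Irf1 and one of Gbp3, at other starts, hold neither motif.
Irf1: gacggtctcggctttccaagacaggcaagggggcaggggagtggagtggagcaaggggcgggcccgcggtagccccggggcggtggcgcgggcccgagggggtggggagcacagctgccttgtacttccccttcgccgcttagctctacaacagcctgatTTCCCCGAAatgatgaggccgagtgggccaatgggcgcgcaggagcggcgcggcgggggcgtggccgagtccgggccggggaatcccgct
Rsad2: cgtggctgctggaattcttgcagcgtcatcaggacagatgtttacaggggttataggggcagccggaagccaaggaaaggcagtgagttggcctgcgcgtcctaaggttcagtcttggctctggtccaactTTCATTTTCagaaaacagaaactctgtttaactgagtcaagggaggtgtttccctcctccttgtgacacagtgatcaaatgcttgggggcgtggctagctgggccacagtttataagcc
Gbp3: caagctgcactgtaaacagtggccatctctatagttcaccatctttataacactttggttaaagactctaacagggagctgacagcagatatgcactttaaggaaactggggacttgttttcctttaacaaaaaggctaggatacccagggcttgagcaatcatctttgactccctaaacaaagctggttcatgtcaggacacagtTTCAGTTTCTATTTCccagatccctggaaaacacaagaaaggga
Ifngr2: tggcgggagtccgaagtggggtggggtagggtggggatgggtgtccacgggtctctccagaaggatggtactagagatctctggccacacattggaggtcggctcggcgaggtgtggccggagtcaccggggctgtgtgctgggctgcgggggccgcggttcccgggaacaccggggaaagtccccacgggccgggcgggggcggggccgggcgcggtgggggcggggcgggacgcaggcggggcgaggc

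Values are the authors' GCRMA expression values on a log2 scale, where a step of 1 is a doubling. Probe sets differ in how strongly they bind, so a level is placed among all genes and not set against another gene's. Differences are null minus WT. A gene was called when its fold reached 1.5 and its unadjusted p did not exceed 0.05 in a limma fit over 45037 probe sets, and Benjamini-Hochberg adjusted p-values over all of them stand beside it.

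Irf1 fell and Rsad2 rose in Atxn1L null HSCs, and no other member was called. These are 2 of 47 members (4.26%), against 3.00% of all genes. In each direction 1 member was called, against 1.57% of all genes called higher and 1.43% called lower. Dim genes are seldom called. Of the 27 members with a mean of at least 5 over the 5 arrays 2 were called (7.41%), against 6.79% of all such genes, so the members' share lay near the background. The count of members was 1 without WT replicate 1, 0 without null replicate 1 and 4 without null replicate 2, where the last 2 fits had a single null pool. At an adjusted p under 0.05 the limma fit passed 0 members and also 0 of all 18193 genes. The lowest adjusted p of a member was 0.574, and that of all genes 0.0931. An unadjusted p of at most 0.05 was reached by 4 of the 47 members, against 1353 of the 18193 genes. Where the mean over the 5 arrays was at least 5, these were 4 of 27 members and 1144 of 7070 genes.

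The members did not move one way. Null minus WT differences were above 0 for 26 members and below 0 for 21, against 8259 and 9934 of all genes. The median difference was 0.06 for the members and -0.00186 for all genes. The members' median was -0.00938 without WT replicate 1 and 0.00342 without null replicate 1. Single differences ran from -1.83 for Ifngr2 to 0.73 for Ifit2. In size 26 of the 47 were smaller than 0.2, against 13152 of all 18193 genes. Where the mean over the 5 arrays was at least 5, this held for 9 of 27 members and 3042 of 7070 genes. Both null pools lay outside the range of the 3 WT pools for 12 members, 6 above and 6 below. Among all genes this held for 17.5%, with 9.14% above and 8.35% below, and among genes with a mean of at least 5 for 33.5%, where 11 of the 27 members did so.

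**Figure D1:**
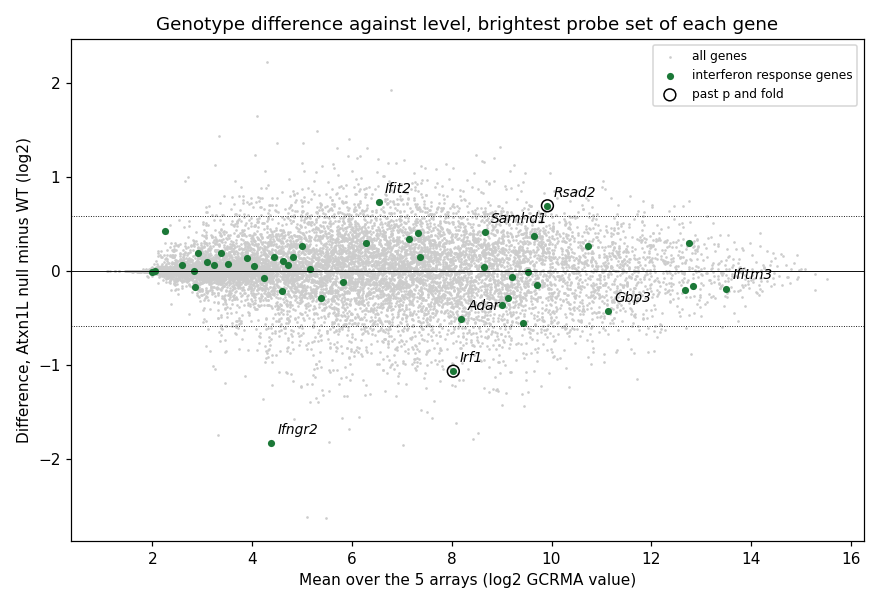
Each point is a gene read by its brightest probe set, with the mean over the 5 arrays across and the difference between genotypes (log2, null minus WT) up the plot. Dotted lines mark a fold of 1.5, circles mark the 2 called members Irf1 and Rsad2, and the 47 members lie on both sides of 0 between -1.83 and 0.73.

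The receptor chains come first. Ifnar2, a chain of the type I receptor, read 9.51, 9.53 and 9.58 in WT and 9.59 and 9.48 in null HSCs, above 91.3% of genes. Its genotypes overlapped and its means differed by -0.01 (SE 0.05). Ifnar1, the other chain, lay above 55.6% of genes, at 4.20, 4.40 and 4.20 in WT and 4.18 and 4.20 in null HSCs, a difference of -0.07 (SE 0.08). Ifnar2's further 2 bright probe sets, meaning those with a mean of at least 5 in a genotype, differed by -0.12 and 0.46, so its probe sets did not share a direction.

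Ifngr2, the signaling chain of the interferon gamma receptor, showed the largest difference of the 47 members and was still not called. It read 5.99, 4.92 and 4.44 in WT and 3.92 and 2.65 in null HSCs, so that both null pools lay below every WT pool. WT pools spread widely, at 5.12 ± 0.79 (SD, n = 3), and null pools at 3.29 ± 0.90 (SD, n = 2). The difference was -1.83 (SE 0.68), with an unadjusted p of 0.057 and an adjusted p of 0.934 from limma. Its second probe set lay near 3.36 in all pools. Leaving out 1 array in turn gave -2.46 to -1.20, with no call. Ifngr2 passed under 4 alternative settings, namely array weights, removal of dim probe sets, the replicate block and a variance trend with robust estimation. Ifngr1, which binds the ligand, read 6.74, 7.17 and 7.09 in WT and 7.13 and 7.56 in null HSCs, a difference of 0.34 (SE 0.21) with overlapping genotypes.

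Irf1, a transcription factor that is itself induced by interferon gamma and that activates many genes of the response, was the member called lower. WT pools read 8.49, 8.12 and 8.76, and null pools 7.18 and 7.61. Every null value lay below every WT value. The means were 8.46 ± 0.32 (SD, n = 3) and 7.39 ± 0.30 (SD, n = 2). The difference of -1.07 (SE 0.26) is a 2.10-fold fall, with an unadjusted p of 0.016 and an adjusted p of 0.641 from limma. It rests on 1 probe set. The fold stayed above 1.5 with any 1 array left out, between -1.28 and -0.85 on the log2 scale, but the p did not pass without WT replicate 1 or without null replicate 1.

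Stat2 and the other interferon regulatory factors were not called. Irf3, the factor that viral sensing activates, lay above 91.9% of genes, at 9.67, 9.90 and 9.73 in WT and 9.66 and 9.58 in null HSCs, a difference of -0.15 (SE 0.09). All 3 of its bright probe sets had differences below 0, from -0.42 to -0.15. The rank of Irf3 rests on its brightest probe set, while the others had means of 5.94, 5.45 and 2.84. Irf8, needed for monocytes and dendritic cells, read 5.88, 5.58 and 6.16 in WT, while its null pools lay on either side, at 5.0 and 6.50. Irf5, a factor downstream of Toll-like receptors, read 6.05, 4.93 and 5.51 in WT and 5.10 and 5.32 in null HSCs. Neither Irf8 nor Irf5 was separated by genotype.

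Irf9, which joins Stat2 in the complex that binds the ISRE, read 4.21, 5.03 and 4.83 in WT and 4.80 and 4.71 in null HSCs. Irf2, a counterpart of Irf1 that competes for the same sites and is known to be needed to keep HSCs from chronic interferon signaling, read 4.37, 4.37 and 4.41 in WT and 4.36 and 4.70 in null HSCs. Both overlapped between genotypes. Irf7, the factor that amplifies type I interferon production and is itself strongly induced by it, read 3.18, 3.22 and 3.22 in WT and 3.33 and 3.21 in null HSCs, above 44.1% of genes. Stat2, a partner of Irf9 in that complex, lay at 2.78, 2.82 and 3.18 against 2.69 and 2.81.

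**Figure D2:**
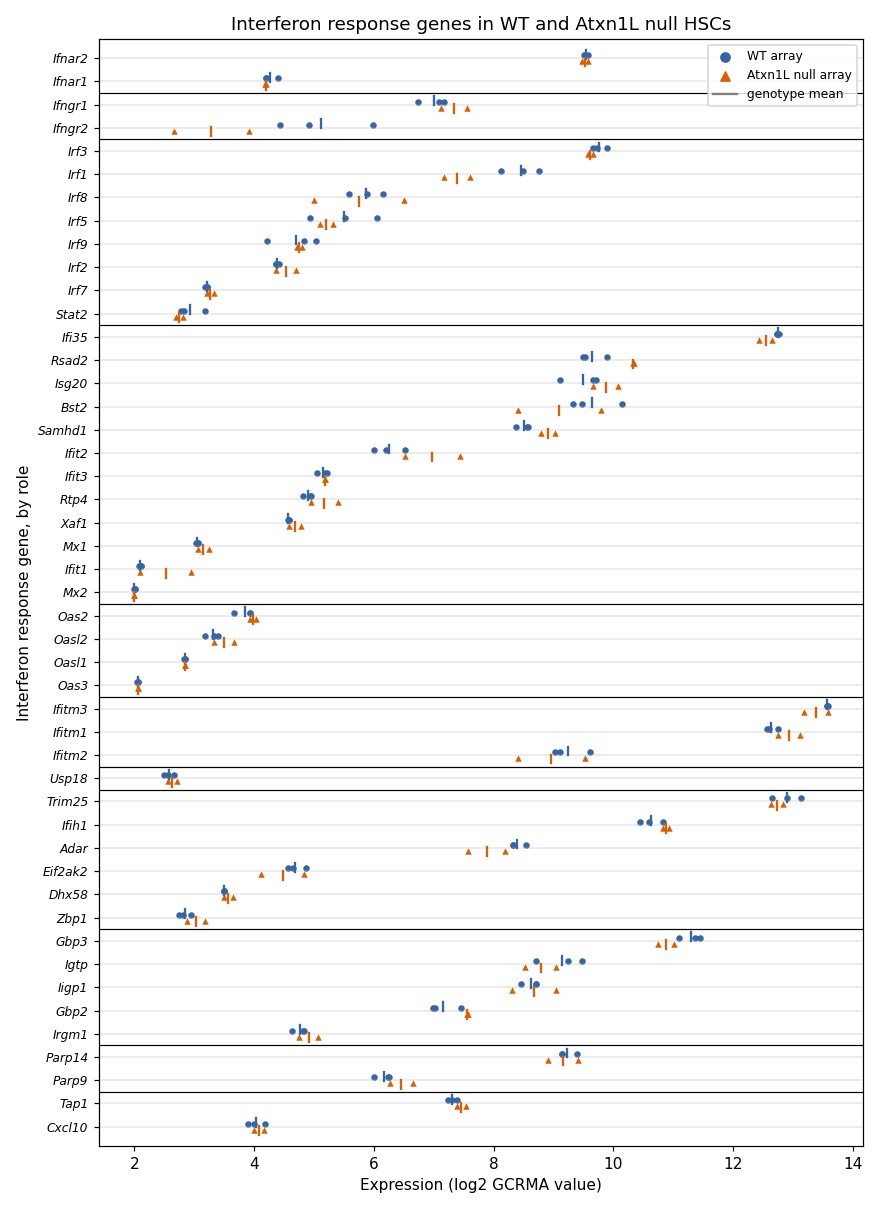
Expression (log2 GCRMA value) of the 47 measured members, a row each, grouped by role from receptors at the top to the chemokine and antigen transport genes at the bottom and sorted by mean within a group. Blue circles are the 3 WT arrays, orange triangles the 2 null arrays and short lines the genotype means. The genotypes separate for 12 members, Irf1 and Rsad2 among them, and Ifit1 stands out among the dim rows through 1 null array.

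Rsad2, also known as viperin, an enzyme that blocks viral RNA synthesis, was the member called higher. WT pools read 9.53, 9.89 and 9.50, and null pools 10.32 and 10.35. Both null pools lay above all WT pools and close together, with means of 9.64 ± 0.22 (SD, n = 3) and 10.34 ± 0.02 (SD, n = 2). The rise of 0.70 (SE 0.15) is 1.62-fold, with an unadjusted p of 0.010 and an adjusted p of 0.574 from limma. Its second bright probe set differed by 0.56, and the remaining, dim one by -0.02. With 1 array left out the difference ran from 0.62 to 0.82, and the p did not pass without either null replicate. Averaging the 3 probe sets left 0.41, below the fold.

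The other antiviral effectors were not called. Ifit2, of the family that recognises foreign RNA ends, had the largest difference above 0. It read 6.01, 6.52 and 6.21 in WT and 7.44 and 6.52 in null HSCs, a difference of 0.73 (SE 0.35) and an unadjusted p of 0.109. The difference came from 1 null pool. Its neighbour in the family Ifit1 did the same at a low level, with 2.95 in null replicate 1 and 2.07 to 2.11 in the 4 other pools. Ifit3 did not, at 5.06, 5.19 and 5.22 in WT and 5.18 and 5.18 in null HSCs. Without null replicate 2 the criterion was met by Ifit1 and Ifit2 above WT and by Adar below, but the null arm was then 1 pool whose spread was assumed to be that of the WT pools. Without null replicate 1 the Ifit2 difference was 0.27.

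Samhd1, an enzyme that breaks down deoxynucleotides and thereby limits viruses, read 8.37, 8.56 and 8.57 in WT and 9.03 and 8.80 in null HSCs. Both null pools lay above the WT pools, by 0.41 (SE 0.11), with an unadjusted p of 0.021 and an adjusted p of 0.682 from limma, and the fold of 1.33 missed the criterion. Of its 4 bright probe sets 3 had differences above 0 and 1 had -0.09. Ifi35, an interferon-induced protein with a leucine zipper, was brighter than 98.7% of genes at 12.77, 12.74 and 12.73 in WT and 12.66 and 12.43 in null HSCs. Its null pools lay below by 0.20 in size, with an unadjusted p of 0.066 from limma. The rank of Ifi35 rests on its brightest probe set, of a type that can bind several transcripts. The next probe set had a mean of 9.59. Of its 3 bright probe sets 1, with a mean of 6.78, had a difference above 0.

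Bst2, or tetherin, which holds budding virus at the cell surface, ranged more among pools than between genotypes, at 9.48, 10.15 and 9.32 in WT and 9.79 and 8.41 in null HSCs. Isg20, an RNA-degrading enzyme, read 9.11, 9.67 and 9.72 in WT and 10.08 and 9.67 in null HSCs. Both overlapped. Rtp4 and Xaf1 read 4.56 to 5.39 in all pools, and their null values were not all above those of WT. Mx1 and Mx2, dynamin-like GTPases against viruses, lay at 3.03 to 3.24 and 1.99 to 2.01. C57Bl/6 mice are known to carry a defective Mx1 gene.

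The 4 members from the oligoadenylate synthetase family, which senses double-stranded RNA, were all dim. Of that family outside the members, Oas1a was bright at a mean of 9.15 and is described below, while Oas1b was dim at 2.69. Oas2 lay at 3.66 to 4.03 and Oas3 at 2.05 to 2.06. Usp18, which removes Isg15 from proteins and damps the type I receptor, lay at 2.49 to 2.71.

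The interferon-induced transmembrane proteins, which stop viruses from entering, were not called. Ifitm3 read 13.57, 13.58 and 13.57 in WT and 13.59 and 13.18 in null HSCs, above 99.4% of genes, and its genotypes overlapped. Ifitm1 read 12.56, 12.75 and 12.60 in WT and 13.12 and 12.75 in null HSCs. Both null values of Ifitm1 were above those of WT, but null replicate 2 only by less than 0.01, and the difference of 0.30 (SE 0.14) was not called. Ifitm2 read 9.11, 9.61 and 9.03 in WT and 9.53 and 8.41 in null HSCs and was not separated.

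The sensors of foreign nucleic acid and their regulators split in direction, and none was called. Trim25, a ubiquitin ligase that activates RIG-I, read 12.65, 12.90 and 13.14 in WT and 12.63 and 12.84 in null HSCs. Ifih1, the RNA sensor MDA5, read 10.44, 10.60 and 10.82 in WT and 10.83 and 10.94 in null HSCs. Its null pools lay above all WT pools, 1 of them barely, and the difference of 0.26 (SE 0.13) had an unadjusted p of 0.126. Adar, which edits double-stranded RNA and keeps Ifih1 from sensing the cell's own RNA, read 8.54, 8.33 and 8.33 in WT and 7.58 and 8.19 in null HSCs. Both null values were below those of WT, by 0.51 in size (SE 0.22) with an unadjusted p of 0.084. Leaving out 1 array moved the Adar difference between -0.82 and -0.21. Eif2ak2, the kinase PKR that stops translation, read 4.12 to 4.86 with overlapping genotypes, and Dhx58 and Zbp1 read 2.75 to 3.65.

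Among the interferon-inducible GTPases, which attack the membranes around microbes inside the cell, Gbp3 and Gbp2 lay on opposite sides of WT. Gbp3 read 11.10, 11.45 and 11.36 in WT and 11.01 and 10.75 in null HSCs. Its null pools were lower by 0.43 in size (SE 0.15), with an unadjusted p of 0.049 and an adjusted p of 0.888 from limma, and the fold of 1.34 missed the criterion. Gbp2 read 7.02, 7.45 and 6.99 in WT and 7.55 and 7.57 in null HSCs. That difference was 0.41 (SE 0.17) with an unadjusted p of 0.083, and its second probe set gave 0.77. Igtp read 8.71, 9.24 and 9.48 against 9.04 and 8.53, and Iigp1 and Irgm1 overlapped too, with differences of 0.05 and 0.15.

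Parp9, an ADP-ribosyltransferase partner of the ligase Dtx3l, read 6.25, 6.24 and 6.00 in WT and 6.27 and 6.65 in null HSCs, a difference of 0.30 (SE 0.16). Parp14, a larger enzyme of that family, overlapped at 9.14, 9.15 and 9.39 against 8.91 and 9.42. Tap1, which carries peptides to class I molecules, read 7.38, 7.24 and 7.30 in WT and 7.53 and 7.38 in null HSCs. Cxcl10, a chemokine that draws T cells, lay at 3.89 to 4.19. None of these 4 genes was called.

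The null pools did not always lie together. Null replicate 1 held the highest of the 5 values for 17 of the 47 members (36.2%), against 16.4% of all genes, and null replicate 2 for 10 (21.3%), against 14.9%. Where a genotype mean reached 5 or more, the shares for null replicate 1 were close, at 32.1% of members and 29.1% of all such genes. Between the null pools, replicate 1 was higher for 17 of the 28 members with a mean of at least 5 in a genotype (60.7%), against 50.3% of such genes. The median gap was 0.13, against 0.00143. Null replicate 2 held the lowest value for 10 of these 28 members (35.7%), against 18.4% of such genes, and null replicate 1 for 17.9%, against 24.2%. Tied values across pools occurred in 15 of 47 members (31.9%) and in 33.8% of all genes.

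**Figure D3:**
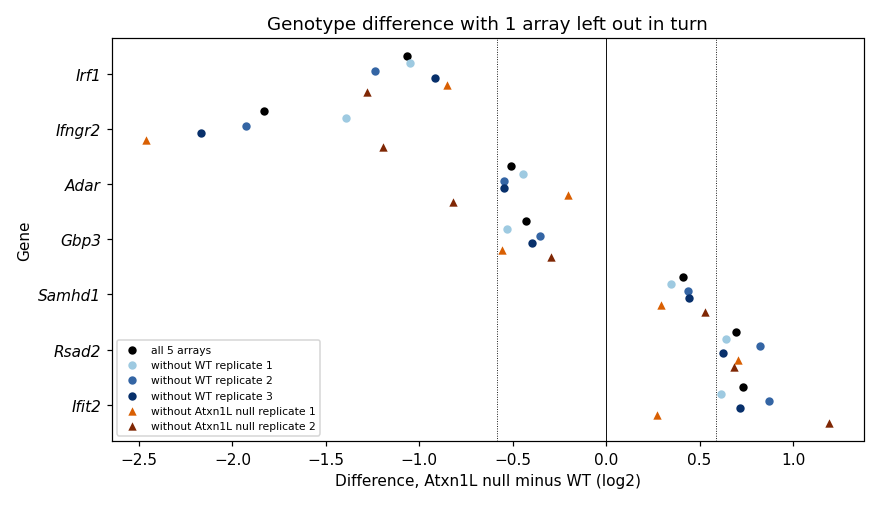
Differences between genotypes (log2, null minus WT) of 7 members with all 5 arrays (black) and with each array left out in turn (blue circles for WT, orange and brown triangles for null arrays). Dotted lines mark a fold of 1.5. Irf1 stays between -1.28 and -0.85 and Rsad2 between 0.62 and 0.82, while Ifit2 falls to 0.27 without null replicate 1 and Adar reaches -0.82 without null replicate 2.

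For 9 members with at least 2 bright probe sets, the direction could be compared within the gene. It was the same in 6, namely Gbp2, Iigp1, Irf3, Parp14, Rsad2 and Trim25, and mixed in 3, Ifi35, Ifnar2 and Samhd1. Probe sets of a gene read different stretches of its transcripts.

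**Figure D4:**
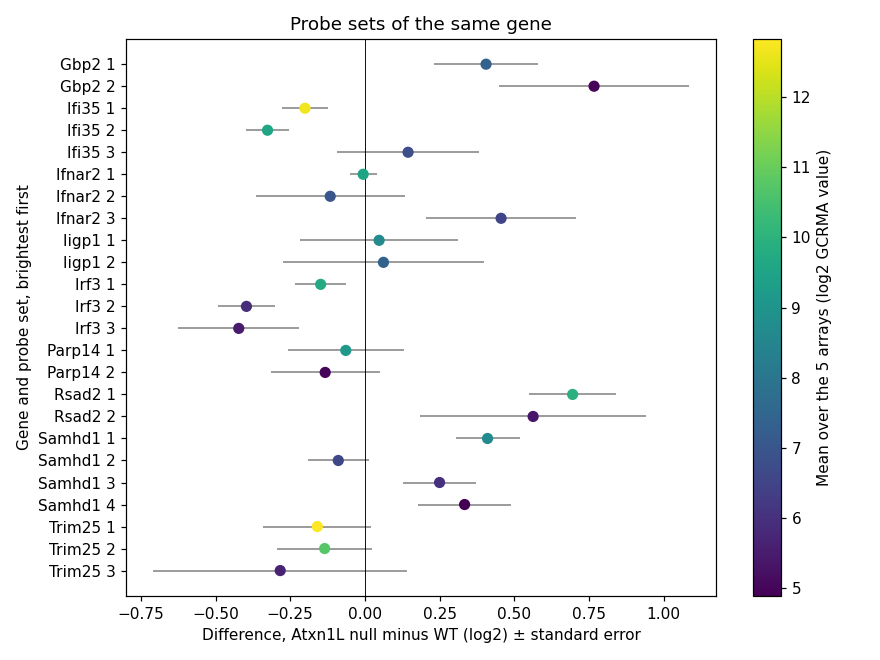
Differences between genotypes (log2, null minus WT, with the standard error from limma as bars) of the bright probe sets of the 9 members that have several, numbered from the brightest and coloured by mean level. Both Rsad2 probe sets lie above 0 and all 3 of Irf3 below 0, while Ifi35, Ifnar2 and Samhd1 lie on both sides.

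Of 110 other genes of the pathway, 90 were measured and 3 were called (3.33%, against 3.00% of all genes), Trim14 and Pnpt1 higher and H2-D1 lower. The limma fit passed 0 of them at an adjusted p under 0.05, and also 0 of all 18193 genes. An unadjusted p of at most 0.05 was reached by 9 of the 90, against 1353 of the 18193 genes. Of the 90, 56 had a mean of at least 5 in a genotype, and of all 7236 such genes 1174 reached that p. Trim14, an adaptor of antiviral signaling, read 4.49, 4.75 and 4.69 in WT and 5.34 and 5.69 in null HSCs. Its rise of 0.88 (SE 0.15, adjusted p = 0.472 from limma) met the criterion with any 1 array left out, though 2 of those 5 fits had a single null pool and took their spread from WT alone. Pnpt1, a mitochondrial RNA-degrading enzyme, read 6.91, 6.81 and 7.14 against 7.46 and 7.73, a rise of 0.64 (adjusted p = 0.619), while its other bright probe set gave -0.07. With 1 array left out the Pnpt1 difference ran from 0.50 to 0.78, and the call ended without WT replicate 1, WT replicate 2 or null replicate 2. Oas1a, of the oligoadenylate synthetase family but outside the members, read 9.01, 8.78 and 8.97 in WT and 9.47 and 9.53 in null HSCs. Its difference of 0.58 (unadjusted p 0.003, adjusted p 0.403) lay just under the fold. Averaging each gene's probe sets ended all 3 calls.

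The class I antigen presentation list held genes and regulators, some of which interferon gamma and Irf1 are known to induce. Its 13 measured genes had a median difference of -0.15. Of these 1 was called (7.69%, against 3.00% of all genes and 6.79% of genes with a mean of at least 5). Both null pools lay below all WT pools for 6 of the 13 and above them for 2, against 8.35% and 9.14% of all genes. The 6 below included Ciita, the class II transactivator, which was dim at a mean of 2.21 and differed by -0.04. Since 12 of the 13 had a mean of at least 5, the nearer background is the 7070 such genes. Of these the null pools lay below for 1081 and above for 1289. On one side lay 33.5% of such genes and 8 of the 13. H2-D1, a class I heavy chain, read 12.59, 12.27 and 12.35 in WT and 11.56 and 11.84 in null HSCs, a fall of 0.70 (SE 0.15, adjusted p = 0.569). Its 4 brightest probe sets passed the criterion, from -0.88 to -0.68, and the call ended without null replicate 1, at -0.56. H2-K1, the other classical heavy chain, read 12.03, 12.12 and 11.95 against 11.53 and 11.54, a difference of -0.50 (SE 0.06, adjusted p = 0.344) under the fold. Its next probe set passed the criterion at -0.67, and another gave -0.54. The genes for these chains are close copies of each other and most of their probe sets are of a type that can bind several, so their signals may be shared.

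Other class I genes did not follow in one direction. Of the 13 measured, 9 had differences below 0 and 4 above 0. Among all 7070 genes with a mean of at least 5 over the 5 arrays, 3360 lay below 0 and 3710 above. Tapbp, which holds the peptide loading complex together, read 12.28, 12.01 and 12.55 against 11.06 and 11.79, a difference of -0.86 with an unadjusted p of 0.051. Calr, a chaperone of that complex, read 11.20, 11.55 and 11.53 against 11.98 and 12.0, a difference of 0.56 with an unadjusted p of 0.016 and a fold of 1.47. B2m, the light chain, overlapped and differed by 0.05. The transporter chain Tap1 described above differed by 0.15. Its partner Tap2, at 7.69, 7.20 and 6.33 against 6.33 and 5.99, differed by -0.91 (SE 0.47), with an unadjusted p of 0.131 from limma. The Tap2 genotypes overlapped only narrowly, at 6.328 in WT replicate 3 and 6.334 in null replicate 1.

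**Figure D5:**
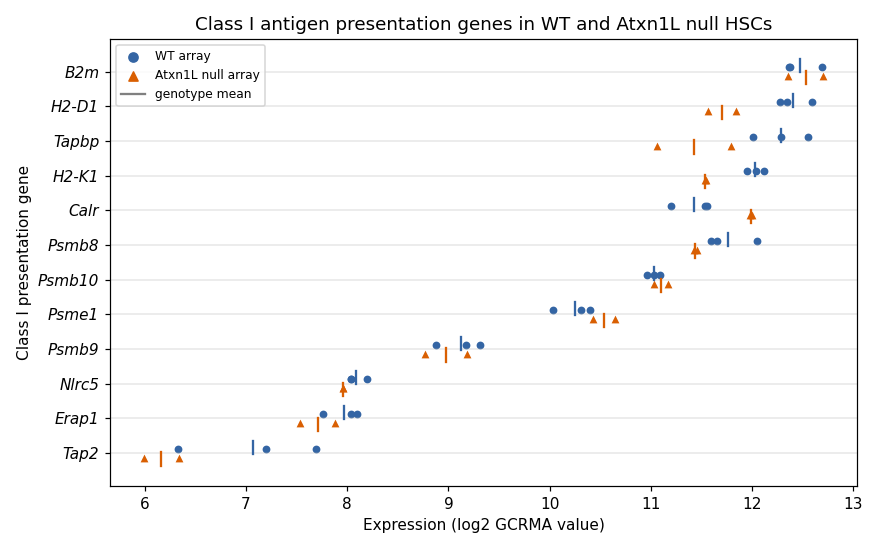
Expression (log2 GCRMA value) of the 12 class I antigen presentation genes outside the members with a mean of at least 5 in a genotype, a row each, sorted by mean. Blue circles are WT arrays, orange triangles null arrays and short lines genotype means. H2-D1, H2-K1, Tapbp, Psmb8 and Nlrc5 have both null arrays below the WT arrays, Calr and Psme1 above them, and B2m overlaps.

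The kinases, regulators and inhibitors on the list (12 measured), the sensing genes (13 measured) and the interferon genes (5 measured) held no called gene. Stat3 and the inhibitor Socs3 were the brightest of the first group at means of 10.33 and 10.30, and the kinase Tbk1 and the adaptor Myd88 of the second at 10.43 and 7.32. All 5 interferon genes lay at 2.25 to 2.59 in every pool, Ifng and Ifna2 the brightest, so none of these transcripts stood out in either genotype.

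The cell label and RNA were checked on the same arrays. Of 15 measured HSC markers 13 were bright and 0 were called, led by Procr and Hoxa9 at means of 13.50 and 13.28, while Slamf1, the gene of the sorted CD150, was dim at 3.91. Both null pools lay below all WT pools for 3 of the 15 and above them for 0. Among all genes 8.35% lay below and 9.14% above. Of the 7070 genes with a mean of at least 5 over the 5 arrays, 1081 lay below and 1289 above. The 3 were Hoxa9, lower by 0.29 in size (unadjusted p 0.00996 from limma), Meis1 by 0.46 (unadjusted p 0.029) and Gata2 by 0.21 (unadjusted p 0.071), each under the fold. Of 46 measured markers of other blood cells 17 were bright and 0 were called. The neutrophil genes S100a8 (13.03 to 13.95) and Camp (12.65 to 13.92) were bright in every pool, as was the monocyte gene Lyz2 (10.02 to 11.22). Their lists were mixed, with 6 of 8 neutrophil and 4 of 9 monocyte and macrophage markers bright. Mmp8 of the first list and Fcgr1 of the second were dim, at means of 2.33 and 2.67. Atxn1l itself read 6.80, 6.69 and 4.98 in WT and 3.08 and 3.99 in null HSCs. The gap between the 3′ and 5′ control probe sets of Gapdh, which widens as RNA or its copies become shorter, was 5.89 to 6.02 in WT and 7.21 to 7.33 in null pools, and that of β-actin 6.40 to 6.71 and 7.28 to 7.43. This difference lies along the genotypes, and its part in the Irf1, Rsad2 and H2-D1 results was not tested.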

How the data were processed

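RNA of sorted, pooled HSCs was hybridized to 5 Affymetrix MOE430.2 arrays, 3 WT and 2 Atxn1L null. The authors processed them with GCRMA (version not given in the sources used here) by background correction, quantile normalization and summarization, and the deposited values are on a log2 scale, as read from their range. Signal over background and the number of arrays limit the precision.

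From there 64 control probe sets were left out, and lmFit and eBayes of limma 3.58.1 (R 4.3.3) were run on 45037 probe sets with a mean per genotype (3 residual and 0.771 prior degrees of freedom). A gene passed when its fold reached 1.5 and its unadjusted p did not exceed 0.05, with Benjamini-Hochberg adjustment beside it. These limits are those in the paper's text. It does not say whether its p was adjusted, and its methods mention a correction for false discovery, so the unadjusted reading is an inference. The script was tested on simulated data. With 3 pools against 2, an exact permutation test could not go below p = 0.1. The paper calls the arrays biological replicates of pooled HSCs and does not say how many animals each pool held. Names came from the platform's annotation, by which 34945 probe sets name 1 gene, 932 several and 9160 none.

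The members and lists were chosen with earlier results of these data known. Every member could be named, with full values for called ones, those with separated genotypes and a difference of at least 0.5, receptors, Stat2, the Irf factors and the 10 brightest. Some further values (Ifit1, Ifit3, Samhd1, Gbp2, Oas1a, H2-K1, Tapbp, Calr and Tap2 among them) were chosen after they were seen. Alternatives covered the variance model, array weights (estimated gene by gene), normalization, dim and shared probe sets, averaging, the call rule, a replicate block and each array left out. Without 1 null array, the lone null pool was assumed to vary like the WT pools. The replicate numbers do not document a pairing.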

Additional observations from a re-analysis of the deposited data

How the results depend on the processing

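Few arrays and low signals limit these results: 20 of the 47 members had a mean under 5, where few genes were called. The number of members called, 2, became 1 with each gene's probe sets averaged (Irf1) and 1 with the replicate block (Ifngr2 alone, since the Irf1 and Rsad2 calls ended), 4 by p alone, 4 by fold alone and 0 at an adjusted p under 0.05. With 1 array left out it ran from 0 (without null replicate 1) to 4 (without null replicate 2). The other settings gave 2 or 3 members. With array weights these were Irf1 and Ifngr2, without Rsad2, and Ifngr2 was also called with a variance trend and robust estimation and with dim probe sets removed. The number of other pathway genes called, 3, became 5 with a variance trend and robust estimation, 6 with array weights, 5 with dim probe sets removed, 0 with probe sets averaged, 5 with the replicate block, 6 where any probe set of the gene counted, 9 by p alone, 8 by fold alone and 0 at an adjusted p under 0.05, and ran from 3 to 9 with 1 array left out (5 without WT replicate 1, 8 without WT replicate 3, 9 without null replicate 2). The median difference of the members, 0.06, became -0.035 with dim probe sets removed and ran from -0.00938 to 0.109 with 1 array left out, so its sign rests on single arrays. None of the 5 called genes turned its direction under these settings. The labels do not document a pairing, so the numbers are not read as pairs, and WT replicate 3 has no partner. Deviations of WT and null pools with the same number correlated at -0.03 and -0.26 over probe sets. With 2 null pools their deviations mirror each other, so these correlations cannot decide on a pairing. The causes of the shifts between settings were not tested.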
